A study of Mus musculus with 8 samples.

Results

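The RNA of 10 genes that break down, make, store and move heme and iron was examined in mouse lens fiber cells (FC), out of 35275 genes listed in the deposited table. The genes are Hmox1, Hmox2, Blvra, Blvrb, Bach1, Alas1, Fth1, Ftl1, Tfrc and Slc40a1, and each was found by its symbol on 1 row. Hmox1 was chosen because its level was high and because it was above the untreated libraries in every smoke library, so its own difference between the groups is given below as a description without a test. The other 9 genes were chosen by their place in the pathway.

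Lens FC of C57BL/6 mice (C57BL/6J in the study's methods) exposed to cigarette smoke (CS) were compared with lens FC of age-matched, untreated control (Ct) mice. The CS-exposed mice were born in a whole-body smoke chamber and stayed there for 3.5 months, with smoke for 5 hours/day on 5 days/week. Each group holds 4 libraries, and each library is a pool of the right-eye lens FC of 4 mice, so that differences between single mice cannot be seen. The labels name no transgene or deleted gene. The study's methods give equal numbers of male and female replicates in each group, but which pools are male or female is not labelled. The libraries held between 18093762 and 23251413 fragments, as found from the steps of the FPKM values (fragments scaled to gene length and to the fragments of the library, the unit of all levels here), and intervals or CVs from reads cover counting error only.

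Heme, the iron-bearing ring of hemoglobin and of many enzymes, is opened by heme oxygenase into biliverdin, carbon monoxide and free iron. Biliverdin reductase turns biliverdin into bilirubin, an antioxidant, and the iron is either bound inside the ferritin shell or exported. The stress-inducible heme oxygenase, Hmox1, is held down by the repressor Bach1, which leaves the gene when it binds heme, and is switched on by NRF2 in response to oxidants, among them those of smoke. Iron levels act on ferritin, on the transferrin receptor and on the exporter ferroportin after transcription. Iron regulatory proteins bind a hairpin in their mRNAs, the iron-responsive element, which blocks translation from the 5′ untranslated region (UTR) and protects the mRNA from decay in the 3′ UTR.

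Because an RNA level reads this control differently for the different genes, the hairpins of the members are shown first. The letters C, 5 of any base, then CAGTGN with 5 paired bases on both sides were searched on the transcript strand in the UTRs of the GENCODE M21 annotation (GRCm38). They were found in the 5′ UTR of Fth1, Ftl1 and Slc40a1 and in the 3′ UTR of Tfrc, and in no UTR of the other 6 members. Of all genes with an annotated 5′ UTR, 31 of 20580 (0.151%) held these letters, and of all with a 3′ UTR, 129 of 20962 (0.615%). A match describes these windows and is not a measurement of binding. Each line below is 30 bases, 5′ to 3′, with the 6 loop bases in capitals.
Fth1, 5′ UTR, chr19:9982732-9982761, plus strand: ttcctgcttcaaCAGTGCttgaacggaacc
Ftl1, 5′ UTR, chr7:45459778-45459807, minus strand: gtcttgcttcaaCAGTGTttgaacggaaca
Slc40a1, 5′ UTR, chr1:45925464-45925493, minus strand: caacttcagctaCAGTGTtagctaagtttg
Tfrc, 3′ UTR, chr16:32631219-32631248, plus strand: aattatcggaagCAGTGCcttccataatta
Tfrc, 3′ UTR, chr16:32631598-32631627, plus strand: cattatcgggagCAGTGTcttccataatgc
Tfrc, 3′ UTR, chr16:32631663-32631692, plus strand: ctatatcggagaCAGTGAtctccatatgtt
Tfrc, 3′ UTR, chr16:32631710-32631739, plus strand: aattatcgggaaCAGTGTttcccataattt
The stems of Fth1 and Ftl1 carry nearly the same letters, and the 4 matches found in Tfrc all lie in its 3′ UTR. Hairpins with other letters were not searched.

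Levels of the 10 genes spanned a wide range per kilobase. Ftl1 had the 14th highest mean of all genes listed, Fth1 the 57th and Hmox1 the 135th, at 5083, 1047 and 317 FPKM over the 8 libraries. Blvra (19.5 FPKM) and Hmox2 (18.3 FPKM) came next, then Tfrc (4.65), Alas1 (3.02), Blvrb (2.03), Bach1 (0.781) and Slc40a1 (0.284). Neighbours in this order were separated in every library, with 3 exceptions. Blvra and Hmox2 overlapped, Alas1 reached 4.01 FPKM in one library while Tfrc fell to 3.99 in the same one, and Blvrb in its highest library (3.08) exceeded Alas1 in that library (2.57). Fth1 and Ftl1 together made up between 0.712% and 0.862% of all FPKM of a library. The plot of FPKM by library shows these levels for each gene on its own scale.

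**Figure D1:**
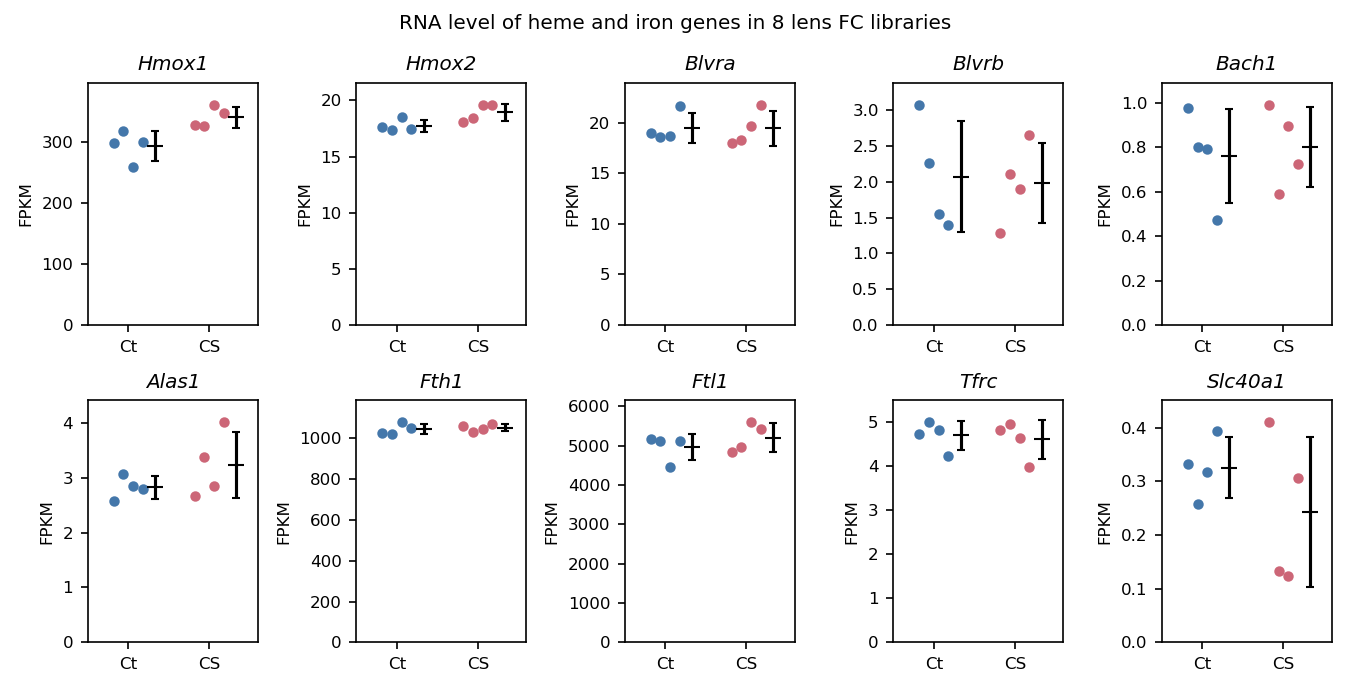
FPKM of each of the 10 genes (vertical axes, each starting at 0) in the 4 untreated Ct libraries (blue) and the 4 CS-exposed libraries (red), with replicates 1 to 4 from left to right. Black bars give mean ± SD, and Hmox1 is the 1 gene whose groups do not overlap.

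Hmox1 (ENSMUSG00000005413.8, chr8:75093621-75100589, plus strand, GRCm38) was 298, 318, 260 and 299 FPKM in untreated Ct replicates 1 to 4, and 327, 326, 361 and 348 FPKM in CS-exposed replicates 1 to 4. The lowest CS-exposed library lay above the highest untreated one, by 326 against 318 FPKM, and untreated replicate 3 was the lowest of all. The group means were 294 ± 24.4 and 341 ± 17.1 FPKM (SD, n = 4), a log2 fold change of 0.22 (SE 0.06) or 16.0% on the means. Over all 9794 genes tested, 3.08% had groups that did not overlap and 1.8% had all CS-exposed libraries above all untreated ones. Hmox1 was picked for this pattern, so nothing is read from its place among them. Between 8700 and 12089 reads stood behind each Hmox1 value, which gives a counting error of about 1.03% in untreated libraries against an observed CV of 8.31%.

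The size of the Hmox1 difference was not even over the libraries. Replicates 1 and 2 of both groups had an Xist level of at most 0.0113 FPKM and replicates 3 and 4 had 41.1 to 49.0 FPKM. Xist is the RNA of the inactive X chromosome. Its levels split each group evenly, as the study's methods split the replicates by sex. Within the libraries with low Xist the log2 difference of Hmox1 was 0.086, and within those with high Xist it was 0.35, with 2 libraries of each group in both cases. Without untreated replicate 3 the difference over the remaining libraries was 0.16.

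Hmox2 (chr16:4726361-4766742), the constitutive heme oxygenase, was 17.6, 17.3, 18.5 and 17.4 FPKM in untreated Ct libraries and 18.1, 18.4, 19.6 and 19.6 FPKM in CS-exposed ones. The 2 highest CS-exposed libraries were above all untreated libraries, while the other 2 were inside the untreated range and above 3 of the 4 untreated libraries. The log2 fold change was 0.09 (SE 0.06, 95% interval -0.04 to 0.22), with p = 0.151 and adjusted p = 0.956 in limma over all genes tested and p = 0.0857 in the exact permutation test (two-sided). Hmox2 shares its locus with Cdip1 on the opposite strand (9.12 FPKM), and whether the counting used strand is not given in the sources used here. Hmox1 RNA was between 14.0 and 18.4 times Hmox2 RNA per kilobase, with the lowest ratio in untreated replicate 3.

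Biliverdin reductase A, Blvra (chr2:127070665-127097084), makes the main form of bilirubin of adult tissue. It was 19.0, 18.6, 18.7 and 21.7 FPKM in untreated libraries and 18.05, 18.3, 19.7 and 21.8 FPKM in CS-exposed libraries. Replicate 4 was the highest in both groups, and the groups covered nearly the same range. Between the groups it differed by -0.003 on the log2 scale (SE 0.08, 95% interval -0.18 to 0.17, limma adjusted p = 0.998).

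Biliverdin reductase B, Blvrb (chr7:27447978-27466144), also known as flavin reductase and abundant in red blood cells, was 3.08, 2.27, 1.55 and 1.40 FPKM in untreated libraries and 1.29, 2.11, 1.90 and 2.65 FPKM in CS-exposed libraries. Only 26 to 63 reads stood behind each value. On the log2 scale the difference was -0.04 (SE 0.26, 95% interval -0.61 to 0.54, limma adjusted p = 0.995), an interval that spans from 0.655-fold to 1.45-fold. Its ratio to Blvra varied widely, with Blvra between 6.17 and 15.5 times Blvrb. The hemoglobin-led red blood cell markers summed to 0.265 to 1.73 FPKM in untreated libraries and 0.4999 to 22.8 FPKM in CS-exposed ones, with the highest sum in CS-exposed replicate 4, which also had the highest Blvrb of its group. The part of these markers in the Blvrb values was not tested.

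The repressor Bach1 (chr16:87698945-87733346) was 0.977, 0.803, 0.792 and 0.471 FPKM in untreated libraries and 0.994, 0.590, 0.897 and 0.725 FPKM in CS-exposed libraries. It stayed under the mean of 1 FPKM in either group that the test required, as did Slc40a1, so 8 of the 10 members were in the fit. The groups overlapped almost fully, and the exact permutation test gave p = 0.714. When genes of all levels were fitted, the log2 fold change of Bach1 was 0.08 (SE 0.28, 95% interval -0.54 to 0.70, limma adjusted p = 0.964). With 50 to 123 reads per library, a change of the size seen for Hmox1 lies inside this interval.

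Alas1 (chr9:106233455-106248654) is the first and rate-limiting enzyme of heme synthesis outside the red cell lineage. It was 2.57, 3.07, 2.85 and 2.79 FPKM in untreated libraries and 2.67, 3.38, 2.85 and 4.01 FPKM in CS-exposed libraries. CS-exposed replicates 2 and 4 were above all untreated libraries, and the other 2 were within them. CS-exposed libraries differed by a log2 fold change of 0.17 (SE 0.14, 95% interval -0.13 to 0.48, limma adjusted p = 0.956, exact permutation p = 0.257). It was 0.07 without CS-exposed replicate 4.

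The heavy ferritin chain, Fth1 (chr19:9980598-9985098), oxidizes iron for storage in the ferritin shell. It was 1026, 1021, 1078 and 1049 FPKM in untreated libraries and 1060, 1029, 1044 and 1069 FPKM in CS-exposed libraries. This was the steadiest of the 10 genes, with a CV of 2.51% in untreated and 1.65% in CS-exposed libraries. The log2 fold change was 0.01 (SE 0.03, 95% interval -0.06 to 0.08, limma adjusted p = 0.991), turned to -0.02 under quantile normalization, and its interval reached no further than 0.959-fold and 1.06-fold.

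The light ferritin chain, Ftl1 (chr7:45457944-45459884), which helps to form the iron core, was 5175, 5112, 4456 and 5117 FPKM in untreated libraries and 4829, 4962, 5599 and 5412 FPKM in CS-exposed libraries. CS-exposed replicates 3 and 4 were above every untreated library, while CS-exposed replicates 1 and 2 were below 3 of the 4 untreated ones. The log2 fold change was 0.07 (SE 0.06, 95% interval -0.06 to 0.19, limma adjusted p = 0.965). Quantile normalization gives every rank the same value in all libraries, and Ftl1 lay between Bfsp1 and Lgsn in every library. Its 0.00 under that setting was therefore fixed by the method. Within the libraries with low Xist the log2 fold change of Ftl1 was -0.07, and within those with high Xist 0.21, without overlap of the groups at either level. Groups that did not overlap at both levels and differed in opposite directions were found for 6.03% of all genes tested, and for Ftl1 and Blvrb among the members. Ftl1 was between 4.13 and 5.37 times Fth1, and this ratio did not pass an exact permutation test between the groups (4.77 ± 0.428 in untreated and 4.95 ± 0.345 in CS-exposed libraries, SD, n = 4, p = 0.571). Reads that also fit a processed copy of a ferritin gene may have been left out or split by the counting. The copies listed by name, Fth-ps2 and Ftl2, reached no more than 0.567 and 0.618 FPKM.

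Hmox1 and Ftl1 varied together within the groups (r = 0.91 over deviations from the group means). Ube2m and Dedd2, named below, had r of 0.94 and 0.93 with Hmox1. Among untreated libraries the likeness of Hmox1 and Ftl1 rests on replicate 3, as the others ran in opposite order. Untreated replicate 3 was the lowest library for both genes and CS-exposed replicate 3 the highest for both. Hmox1 came to 5.75%, 6.22%, 5.83% and 5.85% of Ftl1 in untreated libraries and to 6.78%, 6.57%, 6.45% and 6.43% in CS-exposed libraries. Untreated replicate 3 was inside the range of its group on this scale, and untreated replicate 2 was the highest of its group. The ratio uses the Hmox1 values that chose the gene, so nothing is read from its order between the groups, and both genes share the depth and scaling of each library. By contrast, Fth1 was highest in untreated replicate 3, where Hmox1 and Ftl1 were lowest.

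**Figure D2:**
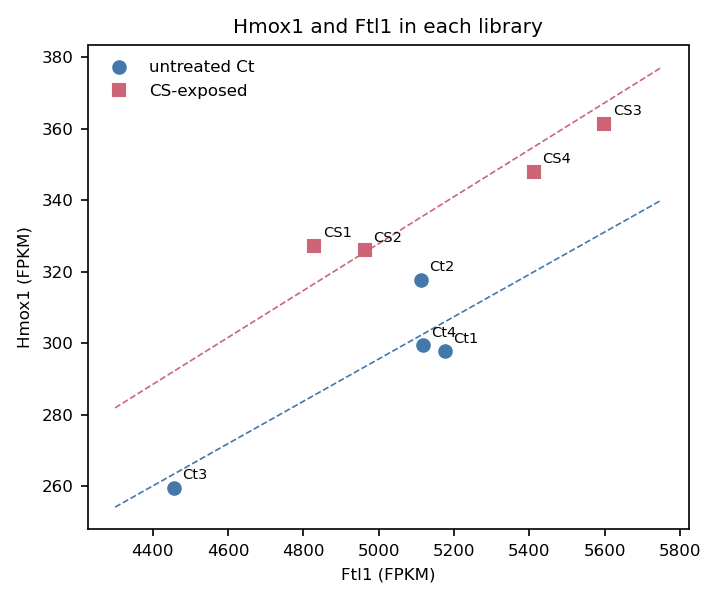
Hmox1 (vertical axis, FPKM) against Ftl1 (horizontal axis, FPKM) in each of the 8 libraries, and neither axis starts at 0, and dashed lines mark each group's mean percentage of Hmox1 over Ftl1. Hmox1 came to 6.43% to 6.78% of Ftl1 in CS-exposed libraries (red squares) and to 5.75% to 6.22% in untreated Ct libraries (blue circles).

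Tfrc (chr16:32608920-32632794), the transferrin receptor that brings iron into cells and bears the 4 hairpins above in its 3′ UTR, was 4.74, 5.002, 4.83 and 4.24 FPKM in untreated libraries and 4.83, 4.97, 4.64 and 3.99 FPKM in CS-exposed libraries. Replicate 4 was the lowest of both groups. The log2 fold change was -0.03 (SE 0.10, 95% interval -0.25 to 0.19, limma adjusted p = 0.991), and without CS-exposed replicate 4 it was 0.03.

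Slc40a1 (chr1:45908068-45926523), which encodes ferroportin, the iron exporter, was 0.333, 0.258, 0.318 and 0.394 FPKM in untreated libraries and 0.410, 0.132, 0.124 and 0.306 FPKM in CS-exposed libraries. CS-exposed replicates 2 and 3 were below every untreated library and replicate 1 was above them all. These values rest on 10 to 34 reads each. In the fit of all genes its log2 fold change was -0.39 (SE 0.36, 95% interval -1.19 to 0.41, limma adjusted p = 0.906, exact permutation p = 0.314). A difference was not detected, and the interval runs from 0.437-fold to 1.33-fold. The estimate depended on the pseudocount, at -0.098 with 1 and -0.57 with 0.01 in place of 0.1. The CV of the CS-exposed libraries was 57.4%, against 22.1% from counting error.

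Of the 7 other members in the fit, none had an unadjusted limma p under 0.05, 4 had a positive and 3 a negative log2 fold change, and their median was 0.01. Over all 9794 genes tested, 4.83% had such a p, 2.75% higher and 2.08% lower, the median log2 fold change was 0.004, and 1 gene (0.0102%), which is no member, passed an adjusted p of 0.05. The limma-voom test on reads recovered from the FPKM also called none of the 7. The plot of log2 fold changes sets the members beside the spread of all tested genes.

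**Figure D3:**
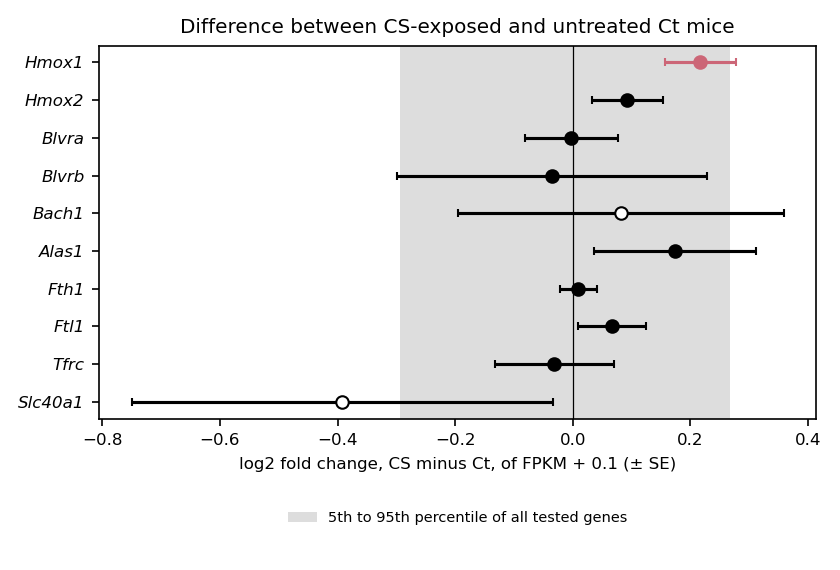
Log2 fold change of CS-exposed against untreated Ct libraries on FPKM + 0.1 for each gene, with bars of 1 SE. Open circles are Bach1 and Slc40a1, from the fit of genes of all levels, and Hmox1 (red) is shown without a test. The grey band is the 5th to 95th percentile of all tested genes (-0.29 to 0.27). Slc40a1 alone has its point outside it, but its level is below the minimum of the genes that set the band.

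Apart from the 10 members, 89 genes were listed by role, of which 63 were in the fit. Besides genes of heme and iron handling, they include 10 regulators of Hmox1 (9 tested) and 11 other NRF2 targets (10 tested). None of the 63 had a limma p under 0.05, against 4.83% of all genes, and 1 (Bach2) had one in limma-voom, where 4.93% of all genes did. Their log2 fold changes were positive for 30 and negative for 33, with a median of -0.004. None of the 63 had groups that did not overlap, against 3.08% of all genes tested.

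Among the genes of heme synthesis, 9 were tested and their median was -0.03. The highest were the mitochondrial carriers Slc25a39 (62.1 FPKM, log2 fold change -0.04, SE 0.05) and Slc25a38 (24.0 FPKM, 0.10, SE 0.08). Slc25a38 carries glycine for the first step that Alas1 catalyzes. Of heme breakdown and transport, 7 were tested besides the members, with a median of -0.06. The regulators of Hmox1 had a median of 0.04 over 9 tested genes and were led by Nfe2l1, a relative of NRF2 (34.4 FPKM, 0.02, SE 0.06), and Mafg, a small MAF partner of both NRF2 and Bach1 (29.7 FPKM, -0.003, SE 0.06). Nfe2l2, which encodes NRF2 (4.64 ± 0.226 FPKM in untreated and 4.93 ± 0.318 in CS-exposed libraries), and Keap1, which marks NRF2 for degradation (4.35 ± 0.463 and 4.53 ± 0.242 FPKM), were added for their role after their values had been seen, with limma adjusted p of 0.981 and 0.985.

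Other known NRF2 targets were read beside Hmox1. Of 10 tested, 7 had a positive log2 fold change, the median was 0.06, and the range was -0.16 to 0.18. Hmox1 was chosen for its rise, so its own value is not ranked against theirs. The 2 highest were Prdx1, a peroxidase (87.0 ± 2.03 FPKM in untreated and 90.9 ± 3.45 in CS-exposed libraries, log2 fold change 0.06, limma adjusted p = 0.956), and Gclc, which makes the precursor of glutathione (27.1 ± 2.04 and 25.0 ± 1.76 FPKM, -0.12, adjusted p = 0.956). Nqo1, a quinone reductase often used as a read-out of NRF2 and added after its values had been seen, was 1.27 ± 0.479 FPKM in untreated and 1.19 ± 0.360 FPKM in CS-exposed libraries (-0.07, SE 0.29).

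On the iron side, 4 genes of uptake were tested besides Tfrc, with a median of -0.05, and Mcoln1, a lysosomal channel that lets iron out, was the highest (11.4 FPKM). Transferrin, Trf, was at most 0.138 FPKM. Besides the ferritins, 3 storage genes were tested with a median of 0.06. Of iron export and hepcidin, Cp, the ferroxidase ceruloplasmin, was 20.9 ± 1.13 and 20.6 ± 1.46 FPKM, and Hfe, a regulator of hepcidin, was 8.09 ± 1.42 and 7.50 ± 1.38 FPKM. Cp was thus far above the exporter Slc40a1 with which it acts. The iron regulatory protein Ireb2 (4.89 FPKM, 0.12, SE 0.10) and its ligase subunit Fbxl5 (11.8 FPKM, -0.01, SE 0.08) led their list of 3. The 16 tested genes of mitochondrial iron and iron-sulfur clusters had a median of -0.01, and the 2 highest were the iron carrier Slc25a28 (43.7 FPKM, 0.03, SE 0.05) and the ferredoxin Fdx1l (34.0 FPKM, 0.06, SE 0.09).

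**Figure D4:**
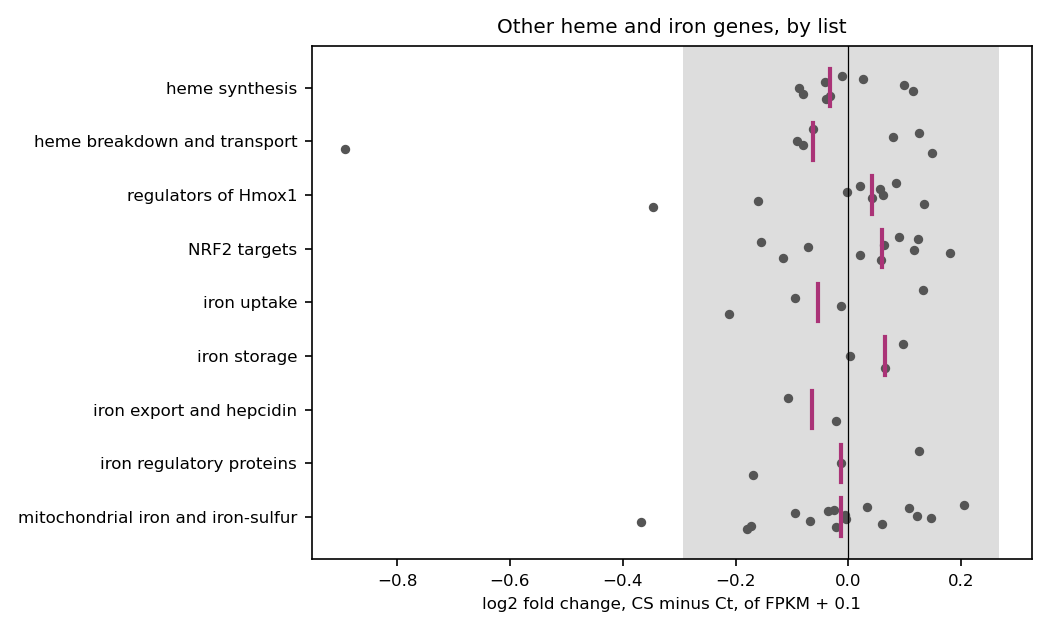
Log2 fold change of CS-exposed against untreated Ct libraries for the 63 tested non-member genes, 1 point per gene, by list (vertical axis), with list medians as purple lines. The grey band is the 5th to 95th percentile of all tested genes, and 60 of the 63 points lie within it.

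By rule, the 5 genes of at least 5 FPKM whose levels were most like those of Hmox1 over the 8 libraries were named, out of 4683 compared. They were Dedd2, a death effector domain protein (Pearson r = 0.97), Pa2g4, a growth regulator (0.96), Ube2m, an enzyme that attaches NEDD8 (0.96), Atp5g2, a subunit of the ATP synthase (0.96), and Rpl18, a ribosomal protein (0.95). Dedd2, the first of them, was 9.22 to 10.6 FPKM in untreated and 10.9 to 11.2 FPKM in CS-exposed libraries, with its lowest value in untreated replicate 3 as for Hmox1. Of the members, Ftl1 had r = 0.81 (rank 141 of the 4683), Hmox2 0.51, Blvra 0.21 and Fth1 -0.24. These values hold the difference between the groups for which Hmox1 was chosen. Over deviations from the group means, r was 0.91 for Ftl1, -0.11 for Hmox2, 0.35 for Blvra and -0.61 for Fth1, so that of Hmox2 changed sign. Lens fiber markers, added after their values had been seen, ran from -0.79 (Cryba1) to 0.88 (Lgsn) over all 8 libraries. Lgsn, Bfsp1 and Hsf4 had r of 0.88, 0.85 and 0.86 over all libraries and of 0.83, 0.85 and 0.60 within the groups. The 3 lens epithelium markers of at least 5 FPKM, Foxe3, Pax6 and Tfap2a, had r of -0.67, -0.42 and -0.006 over all libraries and of -0.58, -0.38 and 0.36 within the groups. The points share their library and its scaling, and no test was made.

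Markers of the lens and of other cells were read in the same libraries. Fiber cell markers, led by the crystallins Crybb2 and Crygs, summed to 233936 to 240964 FPKM in untreated and 231013 to 239759 FPKM in CS-exposed libraries. Of the 11, 9 had the higher mean in CS-exposed libraries, while Crybb2, the most abundant, was 148490 FPKM in untreated and 145443 FPKM in CS-exposed libraries on average. Lens epithelium markers, led by Foxe3 and Pax6, summed to 66.5 to 123 FPKM in untreated libraries and 54.8 to 83.8 in CS-exposed libraries, with 1 of 7 higher in CS-exposed libraries and the highest sum in untreated replicate 3, the library with the lowest Hmox1 and Ftl1. Rod photoreceptor markers, among them Gnat1 and Rom1, summed to 11.6 to 31.2 FPKM in untreated and 31.95 to 106 FPKM in CS-exposed libraries, and all 15 used had the higher mean in CS-exposed libraries. Pigment epithelium markers, led by Mitf and Ttr, summed to 4.96 to 6.21 and 6.35 to 30.6 FPKM, with 10 of 12 higher and Best1 at 0 in all libraries. CS-exposed replicate 3 had the highest sum of both lists and the highest Hmox1. The part of these cells and of the fiber and epithelium markers in the Hmox1 values was not tested, and in pooled tissue fewer cells of a type and less RNA per cell cannot be told apart. The 11 macrophage markers, led by Cd68 and Lyz2, summed to 0.0585 to 0.981 FPKM in untreated and 0.279 to 0.759 in CS-exposed libraries, and none reached 1 FPKM in any library. Cd163, a hemoglobin scavenger receptor known from macrophages and not on that list, was 2.31 to 3.84 FPKM in untreated and 3.19 to 3.71 FPKM in CS-exposed libraries. Endothelium markers, led by Pecam1 and Tek, summed to at most 0.530 FPKM, with Cldn5 at 0 in all libraries. Of the red blood cell markers, led by Hba-a1 and Hbb-bs, none was at 0 in every library.

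**Figure D5:**
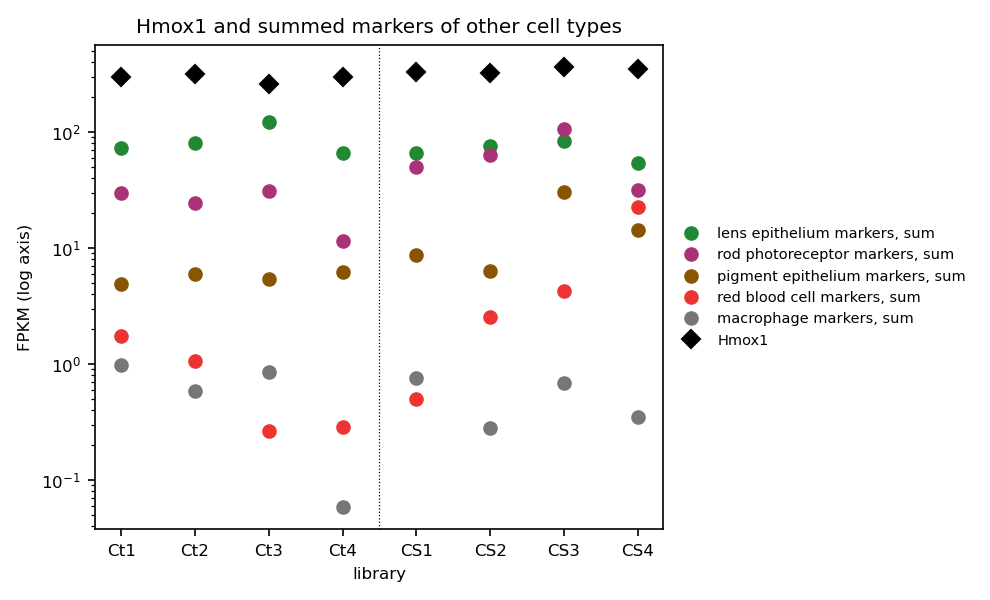
Hmox1 (black diamonds) and the summed markers of 5 other cell types in each library, in FPKM on a log axis, with untreated Ct libraries left and CS-exposed libraries right of the dotted line. Photoreceptor sums are higher in every CS-exposed library (31.95 to 106 against 11.6 to 31.2 FPKM), and macrophage sums stay under 1 FPKM.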

How the data were processed

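Lens FC of 4 pools of CS-exposed and 4 pools of untreated Ct mice were sequenced as paired reads of 150 bases. Per the submitters' notes, the authors used STAR 2.5 for alignment to GRCm38 and HTSeq 0.6.1 for counting, and deposited the values of each library as FPKM. Strand settings and the annotation release are not given in the sources used here. The 5 columns of group means, fold changes and p-values deposited beside them were not used.

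Groups and replicate numbers were taken from the sample titles, and p-values measure the spread between pools. The 9794 of 35275 genes whose mean reached 1 FPKM in one of the groups were tested on log2(FPKM + 0.1) with limma 3.58.1 in R 4.3.3 (lmFit, eBayes with a trend, two-sided, Benjamini-Hochberg adjustment over all genes tested). This scale understates changes of low genes. Single values were tested over all 70 assignments of the libraries, where the smallest possible exact p is 0.0286. Neither these assignments nor the reported fit took Xist level or sex into account. Whole reads were recovered for 100% of the tested genes, to within 0.005 reads plus 1e-07 of the count, with a median of 315 reads per value, and limma-voom was run on them, an alternative chosen after seeing the data. Python 3.11.15, numpy 2.4.6, pandas 2.3.3, scipy 1.17.1 and matplotlib 3.10.9 were used for other values.

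The members and gene lists were chosen with earlier results of these data known. Named by rule were the members, list genes with p under 0.05, the 2 highest genes of each list, and the 5 genes most like Hmox1. Alternatives were other pseudocounts and minimums, median centring, quantile normalization, eBayes without a trend or robust, a replicate block, each library left out, and values within Xist levels. Flvcr1, Flvcr2, Adgre1, Ahsp and Lim2 were not analysed here, and 1 photoreceptor marker of the fixed list is not reported here and was left out of the sums.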

Additional observations from a re-analysis of the deposited data

Results flagged for a closer look

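In 42 groups of 4 libraries (the members, 4 ratios and 7 marker sums), 3 libraries stood apart from the rest of their group, and chance gives about 1 in 20 groups. Ftl1 was 4456 FPKM in untreated replicate 3 against 5112 to 5175 in the other 3 libraries. Blvra was 21.7 FPKM in untreated replicate 4 against 18.6 to 19.0 in the others, and CS-exposed replicate 4 was as high. The red blood cell markers summed to 22.8 FPKM in CS-exposed replicate 4 against 0.4999 to 4.23 in the others.

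For Ftl1 and Blvrb, the libraries with low Xist (replicates 1 and 2) and those with high Xist (replicates 3 and 4) differed in opposite directions between CS-exposed and untreated mice, without overlap of the 2 libraries of each group, as did 6.03% of all genes tested. The log2 difference of Ftl1 was -0.07 at low and 0.21 at high Xist, a difference of -0.28 (low minus high), and that of Blvrb was -0.65 and 0.58, a difference of -1.22. The difference between the Xist levels was not tested.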

How the results depend on the processing

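The Hmox1 difference ranged from 0.16 to 0.26 with a library left out, and was 0.086 within low Xist and 0.35 within high Xist libraries. Its sign is fixed by the way the gene was chosen and is no sign of stability. The 473 genes with p under 0.05 became 862 with no minimum and 226 with a minimum of 5 FPKM, where other numbers of genes were tested, and 418 to 525 with a library left out. Of the wider lists, no gene passed in the fit reported, 2 (Alas2 and Hpx) with no minimum, 1 (Bach2) in limma-voom, and 0 to 3 with a library left out (0 without untreated replicate 4, 3 without untreated replicate 1 or 2, 2 without CS-exposed replicate 2 and 1 without each other library, from among Bach2, Fdx1l, Fdxr, Gclc, Hebp1, Hspa9 and Pcbp2), none with an adjusted p under 0.05. No other member passed p under 0.05 in any alternative. The direction of some turned, and the cause was not tested. Fth1 was -0.016 under quantile normalization, and Blvra was 0.0010 in limma-voom. The 0.00 of Ftl1 under quantile normalization was fixed by its unchanged rank, so nothing is read from it. With a library left out, Fth1 ranged from -0.0011 to 0.025, Blvra from -0.058 to 0.049, Blvrb from -0.19 to 0.17, Bach1 from -0.10 to 0.20 and Tfrc from -0.079 to 0.035. Within Xist levels, Bach1 was -0.18 at low and 0.35 at high Xist, Blvra was 0.042 and Fth1 -0.010 at high Xist, Tfrc was 0.0077 at low Xist, Blvrb was 0.58 at high Xist and Ftl1 -0.071 at low Xist. No direction turned with a library left out for the other members, where Alas1 ranged from 0.07 to 0.26, Ftl1 from 0.02 to 0.10, Hmox2 from 0.07 to 0.11 and Slc40a1 from -0.61 to -0.22.

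With the replicate block, 522 genes had p under 0.05, no gene of the wider lists did, and no call of a member changed. Same-numbered libraries correlated at 0.01 to 0.16 (mean 0.09) in their deviations from the group means, against -0.13 to 0.06 (mean -0.03) for different numbers. Replicate 1 of each group correlated best with another number, and every other library with its own. The numbers are not described as pairs in the labels, so the reported fit did not use them as pairs. Slc40a1, Blvrb and Bach1 had as few as 10, 26 and 50 reads in a library, and their CVs between untreated libraries were 17.2%, 37.2% and 27.7% against counting errors of 19.7%, 15.2% and 10.5%.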

Other observations

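Some genes of the wider lists were named after their values were seen. Hpx, which encodes the heme-binding hemopexin, was below the minimum for the test and was 0.306, 0.343, 0.0873 and 0.187 FPKM in untreated libraries and 0.417, 1.14, 0.560 and 0.407 FPKM in CS-exposed libraries, without overlap (log2 difference 1.12, SE 0.41, limma adjusted p = 0.906 in the fit of genes of all levels). Hebp1, a heme-binding protein, had the largest negative log2 fold change of the 63 tested non-member genes (-0.89, SE 0.47, limma adjusted p = 0.956), with 0.711 to 2.14 FPKM in untreated and 0.218 to 1.63 FPKM in CS-exposed libraries. Fdxr, which passes electrons to ferredoxin, had the smallest p of the 63 (-0.37, SE 0.17, limma adjusted p = 0.956), and Bach2, a relative of Bach1, came next (-0.35, SE 0.17, limma adjusted p = 0.956). Hamp and Hamp2, the hepcidin genes, Hfe2, Hephl1 and Ftmt were listed at 0 in all libraries.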
